A study of Sus scrofa with 9 samples.

Results

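The enzymes that attach ubiquitin to proteins and take it off again were followed through early development of the additional molar, the permanent molar at the back of the jaw that replaces no milk tooth. The members were the genes whose single gene symbol in the annotation of the array began with UBE2, UBE3, UBA, CUL, FBXO, FBXW or FBXL, or with USP and a digit. This rule reads the symbols alone, but it was set with earlier results of these data known. The rule found 121 probe sets (groups of probes against 1 transcript) of the 23999 tested. They named 70 genes of the 6765 with a single symbol, and each gene was read on its probe set with the highest mean log2 signal over the 9 arrays. Another 4 probe sets that matched by 1 of several symbols were left out.

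Germs with their dental lamina were dissected from the mandibles of Wuzhishan miniature pig embryos and fetuses on embryonic days 50, 60 and 70 (called E50, E60 and E70), without treatment and no genetic change in any group, and 3 arrays were hybridised per stage. The first additional molar has formed a cap by E50 and a bell by E60, when the germ of the second appears, and it is in the late bell stage by E70. RNA came from pools of germs of litter mates, and the 3 arrays of a stage are labelled as biological replicates. Whether each came from its own litter is not stated, so the p-values measure the spread of these arrays, which may be smaller than that between litters. In tissue pieces, fewer cells of a type and less RNA per cell cannot be told apart.

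Ubiquitin is a small protein that is joined to other proteins, most often to send them to the proteasome. An activating enzyme (E1) loads it, a conjugating enzyme (E2) carries it, and a ligase (E3) places it on the substrate. Many ligases are built on a cullin scaffold that holds an F-box protein or another substrate receptor, and cullins work only when the related modifier NEDD8 has been joined to them. The ubiquitin specific proteases (USP) cut ubiquitin from its substrates. By symbol the 70 members were 2 activating enzymes, 2 other UBA symbols, 24 conjugating enzymes, 2 UBE3 ligases, 3 cullins, 21 F-box proteins and 16 proteases. The activating enzyme of ubiquitin itself was not among them, since UBA2 serves the modifier SUMO and UBA3 serves NEDD8.

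The E50 arrays stood apart from the others before any gene was compared. Their 3' to 5' signal ratio for the control transcript EF1A lay between 49.3 and 55.8, against 1.42 to 1.56 on E60 arrays and 1.35 to 1.47 on E70 arrays. Pearson's r between arrays of a stage, across probe sets, lay from 0.605 to 0.683 for E50, while E60 gave 0.902 to 0.914 and E70 gave 0.901 to 0.921. Background, taken as the 95th percentile of 23 control probe sets without a pig target, was a signal of 77.7 to 379 on the E50 arrays and of 37.9 to 55.8 on the others. Of the members, 43 lay above background on all E50 arrays, 63 on all E60 arrays and 66 on all E70 arrays, while 7 lay above it on no E50 array. The median standard deviation of a member among the arrays of a stage was 0.44 on the log2 scale for E50, 0.16 for E60 and 0.23 for E70. The signal of the hybridisation spike-ins was 58370 to 66123 on E50 arrays and 3086 to 4268 on the others. Every comparison with E50 is therefore also a comparison between arrays of different 3' bias, and stage and array quality cannot be told apart there. Of 9 measured mesenchyme markers 8 lay above background on all E50 arrays, 9 on all E60 arrays and 8 on all E70 arrays. Of 8 epithelial markers this held for 3, 4 and 7, and KRT18 was above background on no E50 array, while the enamel gene ENAM was above it on 1 array per stage. The mesenchyme gene MSX1 had geometric means of 2908, 1423 and 985 in the order of the stages and the epithelial adhesion gene CDH1 of 1065, 1109 and 2401. The mesenchyme list went both ways from E50 to E60, with 2 called higher, 3 lower and a median change of -0.10. From E50 to E70 none was higher and 4 were lower. No epithelial marker was called from E50 to E60, and from E50 to E70 3 were higher and none lower. Markers of other cells moved with the stages too. The summed signal of 14 skeletal muscle markers was 7189 to 10513 on E50 arrays, 2493 to 2659 on E60 arrays and 889 to 1044 on E70 arrays. For 6 macrophage markers the sums were 4944 to 8092, 2830 to 2977 and 1201 to 1306, and for 12 markers of cycling cells 9161 to 11372, 13814 to 14206 and 13724 to 15212. Sums follow the brightest genes, and the macrophage list did not move as one. From E50 to E60 1 of its genes was called higher and 3 lower, with changes from -4.60 to 3.09. From E50 to E70 1 was higher and 4 were lower. The part of these cells in the results for the members was not tested.

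**Figure D1:**
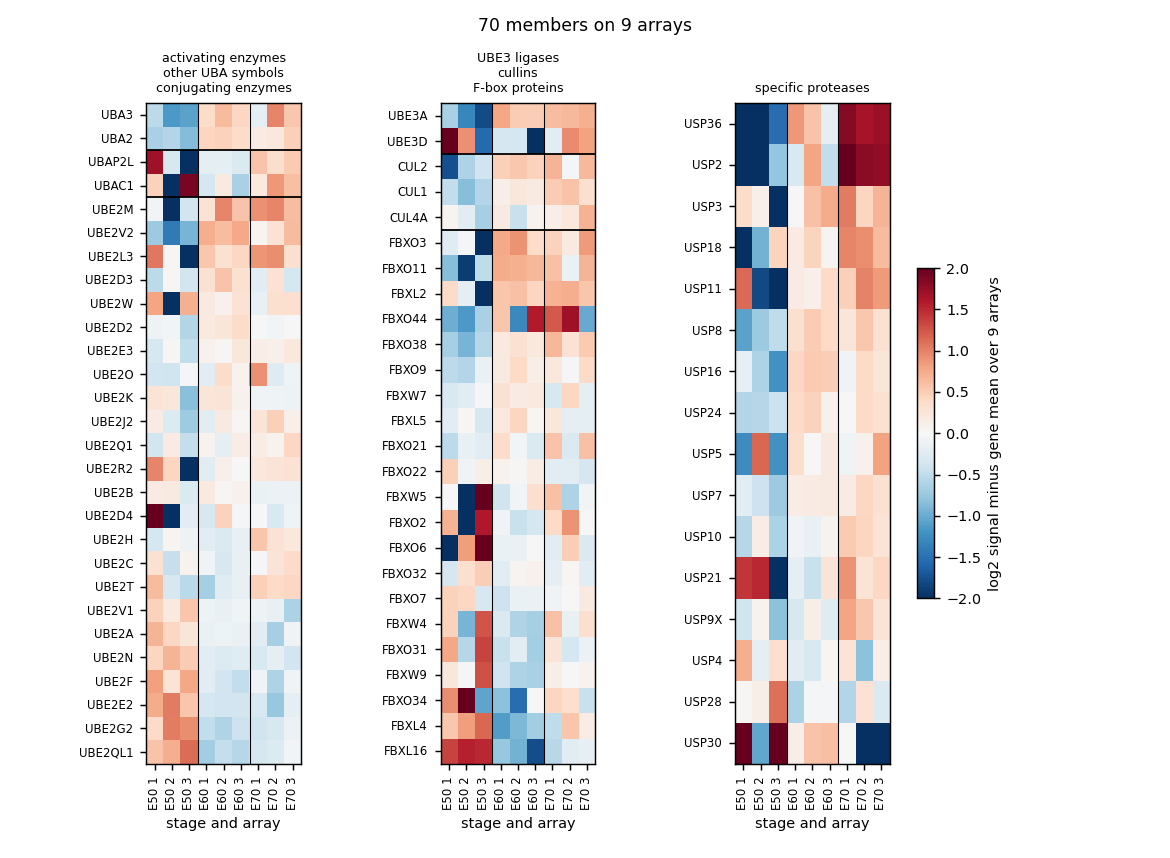
Log2 signal of all 70 members on each of the 9 arrays, as the difference from the gene's own mean over the arrays, with members in rows, arrays in columns and colours clipped at 2 in either direction. Rows within a class are ordered by the change from E50 to E60, and the E50 columns vary more among themselves (median standard deviation 0.44) than the E60 columns (0.16) and E70 columns (0.23).

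The first comparison, E60 with E50, asks which of these enzymes change as the germ passes from cap to bell and the next germ appears. Of the 70 members 12 rose and 7 fell, and 51 did not pass (limma, adjusted p under 0.05 over all 23999 probe sets). Over all genes, 7.2% were called higher and 13.7% lower, while the members gave 17.1% higher and 10.0% lower. The median change of the members was 0.28 on the log2 scale against -0.18 for all genes. Members and all genes differ in signal level. In some stage 87.1% of members and 79.2% of all genes reached the median log2 signal of all probe sets. The part of signal level in these differences, here and from E50 to E70, was not tested. The members that rose were the activating enzymes UBA2 and UBA3, the E2 variant UBE2V2, the ligase UBE3A, the cullins CUL1 and CUL2, the F-box proteins FBXO11 and FBXO38 and the proteases USP8, USP16, USP24 and USP36. Those that fell were the conjugating enzymes UBE2E2, UBE2F, UBE2G2, UBE2N and UBE2QL1 and the F-box proteins FBXL4 and FBXL16.

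How many members passed depended on the scaling and on single arrays. Centring every array on its median shifted the median over all probe sets by 0.77 and gave 21 members higher and 1 lower, with 21.3% of all genes higher and 3.92% lower. Quantile normalization moved it by 0.18 and gave 7 and 4, with 6.36% and 9.96% of genes. The members' median relative to that of all genes was 0.46 as deposited and 0.45 after quantile normalization. A fit of the E50 and E60 arrays alone gave 5 higher and 3 lower, with 3.24% and 6.65% of genes. The 5 were UBA2, UBA3, UBE2V2, UBE3A and USP36, and the 3 were UBE2QL1, FBXL4 and FBXL16. Without E60 replicate 1, 2 or 3 there were 3, 3 and 4 members higher and 2, 2 and 4 lower, without E70 replicate 3 there were 7 higher, and without E50 replicate 2 there were 11 lower. UBE2V2, UBE3A, USP36 and FBXL16 kept their calls in every fit that was run for this comparison. With median centring FBXL16 was the single member called lower, no conjugating enzyme was, and the change of UBE2N was -0.00.

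**Figure D2:**
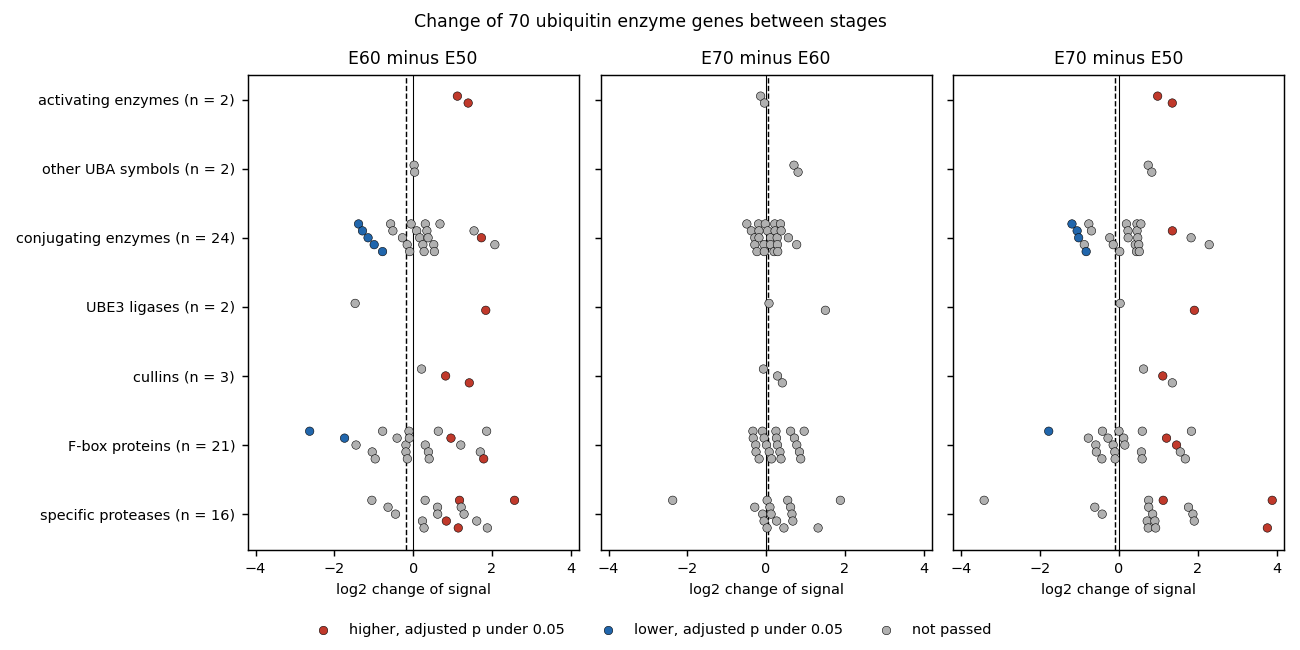
Log2 change of each of the 70 members (points) between stages, by role class, with members called higher in red, called lower in blue and not passed in grey, the solid line at 0 and the dashed line at the median of all genes. In E60 minus E50, 12 members are red and 7 blue. In E70 minus E60 all 70 are grey, and in E70 minus E50 10 are red and 5 blue.

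Both activating enzymes rose. UBA2, which with SAE1 activates SUMO, had signals of 2250, 2334 and 1923 at E50, of 4719, 4832 and 4553 at E60 and of 3929, 4068 and 4870 at E70. All E60 and E70 arrays lay above all E50 arrays, and the log2 change to E60 was 1.12 (SE 0.21, limma adjusted p = 0.0123, with 3 arrays in each stage throughout). The call was lost without E60 replicate 1 or 2 (highest adjusted p = 0.0552). UBA3, the catalytic part of the enzyme that activates NEDD8, had signals of 1170, 765 and 803 at E50, of 2192, 2632 and 2263 at E60 and of 1473, 3322 and 2454 at E70. Its rise to E60 was 1.39 (SE 0.35, adjusted p = 0.0319), and the stages did not overlap. That call was lost after quantile normalization (adjusted p = 0.0623), without any 1 of the E60 arrays and without E50 replicate 2 or 3 or E70 replicate 3 (highest adjusted p = 0.106). UBA3 has 4 other probe sets, all of which went up, but none of them was above background on all E50 arrays. The 1 that was called as well was above background on no E50 array, so its change is not given. The other UBA symbols are no activating enzymes. UBAC1, a subunit of a ligase complex, was above background on no E50 array, so no change is given. UBAP2L, a stress granule protein, had E50 signals from 31 to 448 and a change of 0.04 (SE 0.84) that did not pass.

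Conjugating enzymes, the largest class with 24 members, held 5 of the 7 falls. Of the 24, UBE2V2 rose, 5 fell and 18 did not pass, with a class median of 0.13. The falls were 20.8% of the class, beside 13.7% of all genes called lower. With median centring no conjugating enzyme was called lower. UBE2V2 lacks the catalytic cysteine and pairs with UBE2N to build ubiquitin chains linked through lysine 63, which serve signalling and DNA repair. It had signals of 851, 529 and 740 at E50, of 2336, 2169 and 2401 at E60 and of 1473, 1731 and 2191 at E70, a rise to E60 of 1.73 (SE 0.27, adjusted p = 0.00722). Its partner UBE2N went the other way, with 5771, 6812 and 6073 at E50, 3680, 3537 and 3628 at E60 and 3465, 3723 and 3283 at E70. The stages E50 and E60 did not overlap for either gene. The change of UBE2N was -0.78 (SE 0.20, adjusted p = 0.0330), a call lost without any 1 E60 or E70 array (highest adjusted p = 0.113). UBE2V1, the close relative of UBE2V2, had signals of 4111, 3408 and 4344 at E50 and of 2768, 2688 and 2793 at E60, and its change of -0.52 did not pass (adjusted p = 0.168).

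The other conjugating enzymes that fell work in different places. UBE2G2, an enzyme of protein quality control at the endoplasmic reticulum, had 332, 515 and 484 at E50, 179, 167 and 189 at E60 and 192, 203 and 234 at E70. Its arrays did not overlap between E50 and E60, and the change was -1.29 (SE 0.25, adjusted p = 0.0134). UBE2E2 had 796, 983 and 706 at E50, 373, 367 and 371 at E60 and 389, 283 and 421 at E70, a change of -1.15 (SE 0.25, adjusted p = 0.0199). Its relative UBE2E3 had 6674, 8423 and 5880 at E50 and 8780, 8458 and 9751 at E60, and with 0.38 it did not pass (adjusted p = 0.272). UBE2QL1, a relative of the UBE2Q enzymes, had 300, 336 and 442 at E50, 125, 146 and 136 at E60 and 160, 168 and 197 at E70, a change of -1.39 (SE 0.24, adjusted p = 0.00938). The backgrounds of the E50 arrays were 248, 77.7 and 379, so UBE2G2 and UBE2QL1 lay not far above background on E50 replicates 1 and 3. UBE2F, which carries NEDD8 to a cullin, had 892, 608 and 866 at E50 and 433, 386 and 358 at E60, a change of -0.99 (SE 0.27, adjusted p = 0.0413). Of these calls, that of UBE2G2 was lost without E60 replicate 1 or 2 (highest adjusted p = 0.0568) and that of UBE2E2 without any 1 E60 array (highest adjusted p = 0.0730). The call of UBE2F was lost without E50 replicate 1 or 3, any 1 E60 array or E70 replicate 1 or 3 (highest adjusted p = 0.130). With median centring all 4 had changes below 0 and none passed (adjusted p = 0.184 for UBE2G2, 0.418 for UBE2E2, 0.0845 for UBE2QL1 and 0.621 for UBE2F). With quantile normalization UBE2G2 (adjusted p = 0.0606) and UBE2F (adjusted p = 0.0539) lost their calls. UBE2D2, an E2 that serves many ligases, had 4064, 4191 and 2907 at E50 and 5033, 5179 and 5611 at E60, and its change of 0.52 did not pass (adjusted p = 0.149), while its other probe sets gave 1.25, which passed, and -0.64, which did not (adjusted p = 0.0998).

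**Figure D3:**
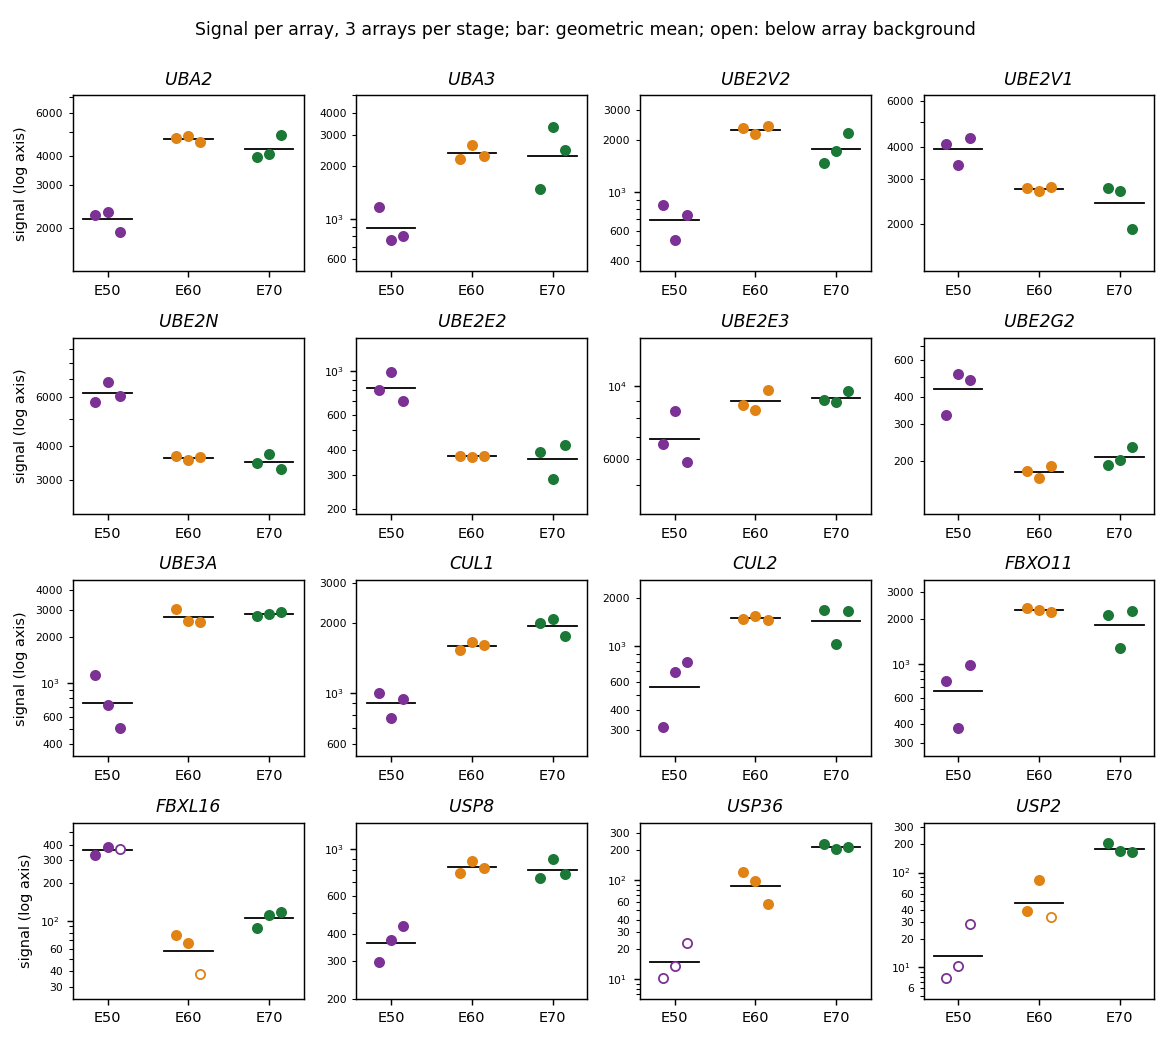
Signal of 16 members on each array, on log axes, with 3 arrays per stage, the geometric mean of a stage as a bar and arrays below their background as open points. UBE2V2 rises from 529 to 851 at E50 to 2169 to 2401 at E60, while UBE2N falls from 5771 to 6812 to 3537 to 3680.

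A ratio of 2 probe sets on the same array is free of any constant factor per array, such as median centring, but not of quantile normalization. A 3' bias or a background that acts unequally on the 2 probe sets stays in the ratio. Stage and array quality therefore cannot be told apart in its shifts from E50 either. The ratio measures unequal change and not a level, since probe sets differ in how strongly they bind. The pairs given here were chosen after their values were seen, and no test was made. The log2 ratio of UBE2V2 to UBE2V1 had a mean of -2.50 ± 0.21 (SD, n = 3) on E50 arrays, of -0.26 ± 0.05 on E60 arrays and of -0.45 ± 0.57 on E70 arrays. For UBE2V2 over UBE2N it was -3.16 ± 0.48, -0.65 ± 0.06 and -0.97 ± 0.34. In both pairs every E50 array lay below every later array, and after quantile normalization the shifts from E50 to E60 were 2.29 and 2.41. With the other UBE2V1 probe sets the first shift was 1.82 without overlap and 2.43 with overlap. UBE2E3 over UBE2E2 gave 3.08 ± 0.02 for E50, 4.60 ± 0.10 for E60 and 4.68 ± 0.26 for E70, again with no overlap. This depended on the probe set, since the 2 other UBE2E3 probe sets gave shifts of 1.43 without overlap and of 0.45 with overlap in place of 1.52. UBE2D2 over UBE2D3 was 1.48 ± 0.34, 1.32 ± 0.19 and 1.53 ± 0.37, within the spread of the arrays, but the 2 other UBE2D2 probe sets gave shifts of 0.57 and -1.32 to E60. UBE2Q1 over UBE2QL1 went from 2.98 ± 0.53 to 4.61 ± 0.26 and 4.45 ± 0.08, and its shift to E60 of 1.63 was 0.88 after quantile normalization.

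**Figure D4:**
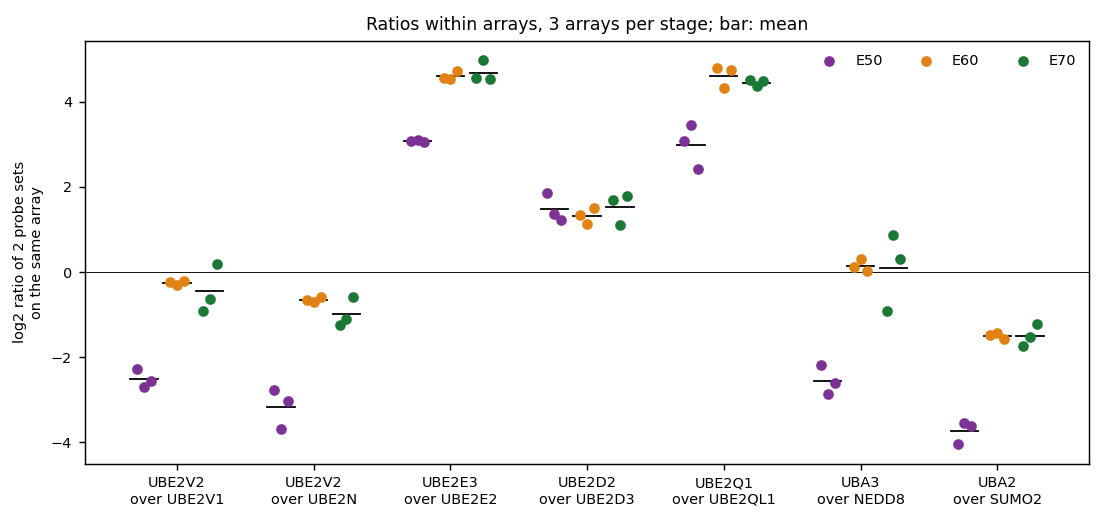
Log2 ratio of 2 probe sets on the same array for 7 pairs, with 3 arrays per stage as points and the mean as a bar. UBE2V2 over UBE2V1 lies at -2.50 at E50 and -0.26 at E60, and UBE2D2 over UBE2D3 stays between 1.32 and 1.53 in the mean.

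The modifiers themselves come from a list of other pathway genes. Of 7 measured ubiquitin-like modifiers 4 were called lower at E60 (NEDD8, SUMO2, SUMO3 and URM1), none higher and 3 did not pass, beside 13.7% of all genes called lower, and the median of the 7 was -0.91. With median centring none passed, with changes of -0.54 for NEDD8 and -0.35 for SUMO2, and with quantile normalization 3 passed, SUMO2 not among them (adjusted p = 0.0901). NEDD8 had 5336, 5607 and 4889 at E50 and 2014, 2136 and 2212 at E60, a change of -1.31 (SE 0.23, adjusted p = 0.0109). SUMO2 had 37206, 27030 and 23673 at E50 and 13168, 12947 and 13552 at E60, a change of -1.12 (SE 0.24, adjusted p = 0.0186). The ratio of UBA3 to NEDD8 on the same array went from -2.56 ± 0.34 (SD, n = 3) at E50 to 0.15 ± 0.14 in the E60 arrays and 0.09 ± 0.91 in the E70 arrays, while the ratio of UBA2 to SUMO2 went from -3.73 ± 0.27 to -1.49 ± 0.08 and -1.50 ± 0.25. After quantile normalization the shifts of these ratios to E60 were 2.62 and 1.58. Of the 3 measured genes of the ubiquitin list 2 were called lower, RPS27A with a log2 change of -2.53 (SE 0.21) and FAU with -0.80 (SE 0.21). These encode ribosomal proteins joined to ubiquitin or to a protein like it. UBB, a gene for ubiquitin alone, had 97858, 93945 and 86161 at E50 and 54624, 60379 and 60297 at E60, and its change of -0.66 did not pass (adjusted p = 0.0654). The scaling decided these values. With median centring RPS27A passed at -1.76 while FAU had -0.03 and UBB 0.11. With quantile normalization RPS27A had -0.26 (adjusted p = 0.394) and FAU 0.12 (adjusted p = 0.721), and UBB was called higher at 0.83 (adjusted p = 0.0383).

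Ligases and their scaffolds rose where they passed. UBE3A, a ligase of the HECT type whose loss in neurons causes Angelman syndrome, had 1133, 717 and 512 at E50, 3038, 2518 and 2497 at E60 and 2740, 2797 and 2909 at E70. No array of the later stages overlapped with E50, and the change to E60 was 1.84 (SE 0.31, adjusted p = 0.00956). UBE3D, the other UBE3 symbol, lay above background on 1 E50 array and 1 E60 array, and its change of -1.47 (SE 0.98) did not pass. CUL1, the scaffold of the ligases that use F-box proteins, had 1000, 779 and 943 at E50, 1529, 1657 and 1602 at E60 and 2013, 2090 and 1767 at E70, a change of 0.82 to E60 (SE 0.21, adjusted p = 0.0345). CUL2, the scaffold that works with VHL, had 314, 691 and 803 at E50, 1483, 1543 and 1468 at E60 and 1695, 1037 and 1663 at E70, a change of 1.42 (SE 0.40, adjusted p = 0.0457). Both cullins lost their calls without any 1 E60 or E70 array (highest adjusted p = 0.117 for CUL1 and 0.127 for CUL2) and after quantile normalization (0.0970 and 0.0708). CUL4A, the scaffold that works with DDB1, had 453, 376 and 275 at E50 and 496, 321 and 458 at E60, which overlapped, and a change of 0.21 (adjusted p = 0.661).

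The 21 F-box proteins went both ways, with 2 higher, 2 lower, 17 not passed and a median of -0.11. That is 9.52% in each direction, beside 7.2% of all genes called higher and 13.7% called lower. FBXO11 had 777, 376 and 982 at E50, 2338, 2285 and 2212 at E60 and 2106, 1268 and 2249 at E70, a change of 1.79 to E60 (SE 0.41, adjusted p = 0.0235), and its other probe set was called at 0.95. FBXO38 had 712, 593 and 755 at E50 and 1286, 1391 and 1306 at E60, a change of 0.96 (SE 0.22, adjusted p = 0.0236). Both had no overlap between these stages, and both calls were lost without any 1 E60 array (highest adjusted p = 0.0800 and 0.0890). FBXL16 had the largest fitted fall of the 70 members, with 331, 379 and 369 at E50, 77, 67 and 38 at E60 and 88, 112 and 116 at E70. The change to E60 was -2.63 (SE 0.31, adjusted p = 0.00304), although E50 replicate 3 and E60 replicate 3 lay below their own background. The backgrounds were 248, 77.7 and 379 at E50 and 37.9, 52.7 and 54.4 at E60. Several signals of FBXL16 thus lay near background, which itself was lower at E60, and its part in this change was not tested. FBXL4, which acts at mitochondria, had 204, 251 and 309 at E50 and 65, 75 and 86 at E60, a change of -1.74 (SE 0.33, adjusted p = 0.0134). Only 1 of the 3 E50 arrays of FBXL4 was above background, and the call was lost without E60 replicate 1 or 2 (highest adjusted p = 0.0581) and with median centring (0.0578) or quantile normalization (0.0740). FBXL5, an iron sensor that directs the decay of an iron regulatory protein, had a change of 0.38 (adjusted p = 0.294), and FBXO22 had -0.10 (adjusted p = 0.786). None of the 4 FBXW proteins passed, among them FBXW7, the receptor for MYC, cyclin E and Notch, with a change of 0.40 (adjusted p = 0.307). FBXO32, an F-box protein known from wasting muscle, had signals of 285 to 505 at E50 and of 308 to 382 at E60. Its change of -0.19 did not pass (adjusted p = 0.670). In the same step 7 of the 14 muscle markers were lower and none higher. The part of muscle in the signal of FBXO32 was not tested.

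Among the 16 ubiquitin specific proteases 4 rose, none fell and 12 did not pass, with a class median of 0.73. The rises were 25% of the class, beside 7.2% of all genes called higher. USP8, which acts on receptors in endosomes, had 295, 374 and 438 at E50, 774, 879 and 817 at E60 and 732, 896 and 762 at E70, a change of 1.18 to E60 (SE 0.23, adjusted p = 0.0153). USP24 had 578, 584 and 645 at E50 and 1134, 1197 and 921 at E60, a change of 0.84 (SE 0.22, adjusted p = 0.0398). USP16, which removes ubiquitin from histone H2A, had 745, 546 and 359 at E50 and 1111, 1200 and 1182 at E60, a change of 1.14 (SE 0.31, adjusted p = 0.0407). The stages did not overlap for these 3. Their calls were lost without any 1 E60 array (highest adjusted p = 0.0639 for USP8), for USP16 also without E50 replicate 2 or any 1 E70 array (highest adjusted p = 0.120) and for USP24 also without E50 replicate 1 or 2 or any 1 E70 array (highest adjusted p = 0.137). Quantile normalization ended the calls of USP16 (adjusted p = 0.0974) and USP24 (adjusted p = 0.0503), and averaging the 3 probe sets of USP16 ended its call as well (adjusted p = 0.140). USP36, a nucleolar protease, had signals of 10, 14 and 23 on the E50 arrays, all below background, and of 120, 97 and 58 at E60. It passed (adjusted p = 0.00643), but on 2 of the 3 E50 arrays the background was above every E60 signal, so no fold is given. USP7, the protease of MDM2 and p53, had 2101, 1862 and 1497 at E50 and 2724, 2769 and 2803 at E60, and its change of 0.62 did not pass (adjusted p = 0.0906). USP10 and USP9X had changes of 0.30 and 0.23 and overlapped between the stages.

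In the next comparison, E70 with E60, both stages had similar EF1A ratios, but the 3' to 5' ratios of GAPDH and actin did not overlap. The GAPDH ratio was 6.98 to 9.24 on E60 arrays and 4.36 to 6.47 on E70 arrays. For actin it was 30.1 to 34.9 and 22.9 to 26.3, so 3' bias differed between these stages too. No member passed in either direction (limma, lowest adjusted p = 0.348). Over all genes, 0.118% were called higher and 0.606% lower. At an unadjusted p under 0.05, 5 members passed, all higher, which is 7.14% of members against 9.68% of all genes. A fit of these stages alone called no member either (lowest adjusted p = 0.0813, for UBAP2L), with 17 members at an unadjusted p under 0.05, or 24.3% of members against 21.5% of genes. The median change of the members was 0.13 and that of all genes 0.05. The summed signal of the 8 measured epithelial markers was 5705 to 5892 on the E60 arrays and 12282 to 12910 on the E70 arrays, and its part in the members' values was not tested.

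Without regard to the test, 22 members had all E70 arrays above all E60 arrays and 7 had them below. Of all genes 18.4% lay above and 15.7% below in the same way. USP9X, a protease that acts on the TGF-beta mediator SMAD4, had 1152, 1570 and 1218 at E60 and 2497, 2088 and 1733 at E70, a change of 0.68 (SE 0.30, adjusted p = 0.671). USP10 had 1841, 1742 and 2039 at E60 and 2770, 2618 and 2315 at E70, a change of 0.45 (SE 0.27, adjusted p = 0.847). USP2 had 39, 83 and 34 at E60 and 204, 169 and 165 at E70, and USP36 went from 120, 97 and 58 to 233, 207 and 218. For USP2 E60 replicate 3 was below background, so its fitted change of 1.89 (SE 0.55, adjusted p = 0.348) has no firm base. USP36 had a change of 1.32 (SE 0.39, adjusted p = 0.356). FBXL16 and FBXL4, which fell in the step before, had changes of 0.85 (SE 0.31) and 0.97 (SE 0.33) with no overlap, and UBE2T, an E2 of DNA crosslink repair, had 555, 748 and 796 at E60 and 1229, 1150 and 1174 at E70 (change 0.78, adjusted p = 0.668). UBE2D2 and UBE2D3 had all E70 arrays below E60, with changes of -0.29 and -0.49. Because this comparison shares the E60 arrays with the first, a low or high E60 value enters both with opposite sign.

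Across the whole interval, E70 with E50, 10 members were higher, 5 were lower and 55 did not pass. Over all genes, 7.33% were called higher and 14.3% lower. The median change of the members was 0.49 against -0.11 for all genes. With median centring there were 26 higher and none lower, with 21.9% and 5.65% of all genes, and with quantile normalization 9 and 3, with 7.05% and 12.4% of genes. A fit of the E50 and E70 arrays alone gave 3 and 1, with 2.41% and 5.99% of genes. Without E70 replicate 2 or 3 there were 6 and 5 higher. Without E60 replicate 1 or E70 replicate 1, 2 or 3 there were 3, 2, 1 and 2 lower, and without E50 replicate 2 there were 8 lower. For fits without 1 array, here and in the first comparison, the share of all genes is not given. Those counts show only how the calls depend on single arrays. UBE3A, USP2 and USP36 kept their calls in every fit that was run.

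The members called higher were UBA2, UBA3, UBE2V2, UBE3A, CUL1, FBXO11, FBXO38, USP2, USP8 and USP36. UBE3A changed by 1.92 (SE 0.31, adjusted p = 0.00728), UBE2V2 by 1.36 (SE 0.27, adjusted p = 0.0141) and CUL1 by 1.11 (SE 0.21, adjusted p = 0.0118). FBXO11 changed by 1.46 (SE 0.41, adjusted p = 0.0442), a call lost on leaving out any 1 array other than E50 replicate 3 (highest adjusted p = 0.137). UBE2V2 lost its call without E70 replicate 3 (adjusted p = 0.0568), UBA2 without E70 replicate 2 or 3 (highest adjusted p = 0.0727), and USP8 without the same arrays (highest adjusted p = 0.0613). UBA3, with 1.35 (SE 0.35, adjusted p = 0.0341), lost it without E50 replicate 2 or 3, any 1 E60 array or E70 replicate 2 or 3 (highest adjusted p = 0.107). Quantile normalization ended the calls of UBA3 (0.0577) and FBXO11 (0.0774). In the fit of the E50 and E70 arrays alone CUL1 (adjusted p = 0.0718) and FBXO38 (adjusted p = 0.0634) lost their calls. So did UBA2, UBA3, UBE2V2, FBXO11 and USP8. With a replicate block UBA2, UBA3 and FBXO11 lost theirs. USP36 had 233, 207 and 218 at E70 (adjusted p = 0.00120), and 2 of the 3 E50 backgrounds lay above all of these, so no fold is given. USP2, a protease of cyclin D1 and of clock proteins, had 8, 10 and 28 at E50, all below background, and 204, 169 and 165 at E70 (adjusted p = 0.00466), and no fold is given for the same reason. CUL2 had a change of 1.36 and missed the threshold (adjusted p = 0.0525).

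The members called lower were FBXL16, UBE2E2, UBE2G2, UBE2N and UBE2QL1. FBXL16 changed by -1.78 (SE 0.31, adjusted p = 0.00904), UBE2E2 by -1.19 (SE 0.25, adjusted p = 0.0166) and UBE2G2 by -1.06 (SE 0.25, adjusted p = 0.0242). UBE2QL1 changed by -1.02 (SE 0.24, adjusted p = 0.0236) and UBE2N by -0.83 (SE 0.20, adjusted p = 0.0257). With median centring all 5 stayed below 0 and none passed, with adjusted p from 0.0556 for FBXL16 to 0.739 for UBE2N. With quantile normalization FBXL16 (0.0855), UBE2G2 (0.0925) and UBE2QL1 (0.123) lost their calls. In the fit of the E50 and E70 arrays alone, and with a replicate block, only FBXL16 kept its call. UBE2E2 lost its call without E70 replicate 2 (adjusted p = 0.0556), UBE2QL1 without any 1 E70 array (highest adjusted p = 0.0782), UBE2G2 without these or E60 replicate 1 (highest adjusted p = 0.0796) and UBE2N without any 1 E60 or E70 array (highest adjusted p = 0.0925).

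Over the 3 stages together, 16 of the 70 members passed the moderated F test, and 20.6% of all genes did. Without E60 replicate 1, 2 or 3 this was 5, 6 and 7 members, and without E70 replicate 3 it was 9. For these fits the share of all genes is not given. The choice of probe set decided some calls. For 33 members with 51 further probe sets, in the step to E60, 3 of these were called with the same sign as the brightest. Another 5 were not called but had its sign, 7 were called where the brightest was not, and 36 were called on neither. Of the further probe sets that were called, those of FBXO11, UBE2D2 and UBE2H lay above background on all arrays of both stages. Those of FBXL4, FBXL5, FBXO6, FBXO21, UBA3 and USP4 lay above background on no array of E50, of E60 or of both. UBE2H, for example, was not called on its brightest probe set (-0.09) and rose by 1.61 on the other (adjusted p = 0.00877). FBXO21, with a change of 0.31 on its brightest, had 3.60 (adjusted p = 0.00387) and -5.16 (adjusted p = 0.0215) on others that were dim, and the cause of this difference was not tested.

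The rest of the pathway was taken from fixed lists, to be read beside the 7.2% of all genes called higher and 13.7% called lower. Of 13 measured partners of cullins 2 rose and 1 fell between E50 and E60. COPS2, a subunit of the complex that removes NEDD8 from cullins, had 632, 822 and 306 at E50 and 2245, 1858 and 2125 at E60 (change 1.93, SE 0.38, adjusted p = 0.0144), SPOP, a receptor for CUL3 ligases, changed by 1.03 (SE 0.27) and ELOB, an adaptor for CUL2 ligases, fell by 1.00 on the log2 scale (SE 0.25). Of 26 other HECT and RING ligases 5 rose and 1 fell, with ITCH, which acts on Notch and JUNB, at 1.28 (SE 0.35) and ANAPC13, of the anaphase promoting complex, at -0.78 (SE 0.20). WWP1 was called higher too, but lay above background on 1 E50 array, so no change is given. Of 17 other removal enzymes SENP6, a SUMO protease, and UCHL1 rose, by 1.15 (SE 0.25) and 0.98 (SE 0.23), and none fell. Of the 8 SUMO and other E1 and E2 partners AKTIP rose and UFC1, the E2 of the modifier UFM1, fell, with a change of -0.91 (SE 0.25). With median centring the cullin partners gave 6 higher and none lower, the ligases 10 and none, the removal enzymes 6 and none and the E1 and E2 partners 3 and none. With quantile normalization the same lists gave 1 and none, 3 and 1, 2 and none, and 1 and 1. None of these lists had a gene called between E60 and E70, under either scaling or as deposited.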

How the data were processed

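Total RNA of pooled germs was hybridised to Affymetrix Porcine Genome Arrays. The authors deposited linear intensity values made with the MAS 5.0 algorithm in GeneSpring. Precision is limited by the small number of arrays. A floor of 1 was applied before the log2 transform. After 124 array controls were set aside, 23999 of 24123 probe sets were fitted with limma 3.58.1 in R 4.3.3 (lmFit, eBayes, all 9 arrays, stage as the only term), with Benjamini-Hochberg adjustment over all of them. Stages were taken from the sample titles. Symbols came from the platform annotation, and 65 of 70 members were found by Entrez number in the RefSeq gene table. Members are read on 1 probe set each, and the background shares count genes in the same way.

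Members, lists and tests were chosen with earlier results of these data known. Named in each comparison were up to 5 called rises and 5 called falls with the largest change, without overlap and with a brighter stage at or above a log2 signal of 7.29, then the 3 members with the highest mean signal in each class, and all activating enzymes and cullins. UBE2F, UBE2V1, UBE2D3, UBE2H, UBE2Q1, UBE2T, FBXO21, FBXO32, FBXO38, FBXW7, USP8, USP16 and USP24, the ratios and the genes named from other lists were chosen after their values were seen. Of the members 61 (87.1%) reach that signal in some stage, and of all genes 79.2%. Alternatives were median centring, quantile normalization, a floor of 16, a filter on dim probe sets, fits of 2 stages alone, a replicate block, the mean of a gene's probe sets and leaving out each array. The other scalings of the list genes and of the ratios, and the ratios on other probe sets, were added after the data were seen. The fit was tested on simulated data. Tables and figures used Python 3.11.15, pandas 2.3.3 and Matplotlib 3.10.9.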

Additional observations from a re-analysis of the deposited data

How the results depend on the processing

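Between E60 and E70 no member was called under any alternative that was run. Members higher at E60 than at E50, 12 as reported, numbered 21 with median centring, 7 with quantile normalization, 5 with these stages alone, 6 with a replicate block and 3 to 14 without 1 array. Those lower, 7 as reported, numbered 1, 4, 3 and 4 in the same order and 2 to 11 without 1 array. Members higher at E70 than at E50, 10 as reported, numbered 26 with median centring, 16 with the filter on dim probe sets, 3 with these stages alone and 5 to 13 without 1 array. Those lower, 5 as reported, numbered 0 with median centring, 3 with quantile normalization, 8 with the filter, 1 with these stages alone, 1 with a replicate block and 1 to 8 without 1 array. With the replicate block 4.17% of all genes were higher and 8.13% lower at E60 than at E50. At E70 against E50 these shares were 4.30% and 9.28%. Shares for the filter and for fits without 1 array are not given. Over the 3 stages 16 members became 24 with median centring, 10 with quantile normalization, 7 with a replicate block and 5 to 19 without 1 array. The share of all genes in these F tests is not given. The counts show only how the calls depend on the processing. The floor of 16 and the mean of a gene's probe sets left every count within 1.5 times the reported one. FBXL5, which did not pass between E50 and E70, had -2.09 on the mean of its probe sets (adjusted p = 0.0475), its other probe set being dim. The labels do not say whether the replicate numbers pair the arrays. Deviations of same-numbered arrays correlated between -0.02 and 0.03, and those of other pairs between -0.04 and 0.03. With 3 arrays per stage these values cannot settle whether arrays with the same number belong together.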
